A study of Homo sapiens with 10 samples.

Results

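Kuramochi cells that had become resistant to olaparib at 10 µM were compared with untreated cells of the same line. The members were all cells whose deposited name carries the code of the population adapted at 10 µM or of the untreated control, in either of 2 pools. They numbered 8005 of the 13800 cells of the series: 3415 adapted cells (1831 in pool 1 and 1584 in pool 2) and 4590 control cells (2435 and 2155).

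Kuramochi is an established human line of high-grade serous ovarian cancer, and its labelled genotype is BRCA2-mutant in every condition. Olaparib blocks PARP1 and PARP2, enzymes that detect and help to repair breaks in DNA, and it holds them on the damaged strand. A cell with poor homologous recombination, the pathway in which BRCA2 acts, tolerates this badly. Serous ovarian cancer cells carry keratins and the lineage factors PAX8, SOX17 and WT1, and many carcinoma cells can shift towards a mesenchymal state, in which matrix, contractile and adhesion genes replace epithelial ones.

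The adapted population was labelled as resistant and was sampled beside cells that had met 10 or 320 µM olaparib for 9 days (persister cells), a second adapted population at 320 µM, and the control. How long adaptation took, and whether it started from 1 clone, is not given in the sources used here. Cells of all 5 conditions were marked with antibody hashtags, mixed into each pool and sequenced together as 3′ single-cell RNA. Counts were summed over the cells of a condition in a pool, so each condition had n = 2 sums. Nothing in the labels says that the pools were separate cultures, and the p-values therefore reflect only how far the pools differed, which may be technical.

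The adapted sums held 15859741 and 15972992 UMIs, the molecular barcodes by which captured transcripts are counted, and the control sums held 22252107 and 23189583. Median UMIs per cell were 8131 and 9183 in adapted cells and 8539 and 10000 in control cells. Ribosomal protein transcripts took 31.6% and 31.9% of the adapted UMIs and 25.1% and 25.2% of the control UMIs. Mitochondrial transcripts took 7.37% and 7.30% against 8.33% and 8.08%.

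The label calls the cells epithelial, and the markers bear this out only in part. KRT8 and KRT18, the keratins of simple epithelia, stood at 1242 and 1285 and at 2750 and 2809 CPM (counts relative to a fixed library total, after TMM scaling between sums) in the control. PAX8, a lineage factor of Müllerian epithelium, stood at 173 and 159 CPM. CDH1, which encodes E-cadherin, was close to absent, at 0.398 and 0.424 CPM in the control and 0.0653 and 0.129 CPM in adapted cells. EPCAM, an epithelial adhesion molecule, was low, at 4.25 and 5.01 CPM in the control. RAB25 and GRHL2, also epithelial, had at most 1 UMI in any of the 4 sums.

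Of 13330 genes tested, 8941 (67.1%) differed between adapted and control cells with an adjusted p under 0.05 in edgeR. Of these, 4495 (33.7%) were higher in adapted cells and 4446 (33.4%) were lower. Each count of list members given below is to be read beside these shares. The spread between pools was small, so most of the calls were small changes. At least 2-fold changes were called for 1926 genes (14.4%) upwards and 909 (6.82%) downwards. The median log2 change over all tested genes was 0.0048. In sums, fewer cells with a transcript and less of it per cell cannot be told apart, and shares of cells are therefore given for the genes with the largest changes. Levels are compared between samples and not between genes.

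The largest rises were in matrix, adhesion and contractile genes. VCAM1, a cell adhesion molecule that binds integrins, had 0.398 and 0.636 CPM in the control sums and 109 and 102 CPM in the adapted sums. TGFBI, a matrix protein induced by TGF-beta, went from 1.19 and 1.10 CPM to 127 and 127 CPM. COL1A1, the alpha 1 chain of type I collagen, went from 0.884 and 1.19 CPM to 93.6 and 90.8 CPM. In each of these genes the adapted sums lay far above both control sums, with log2 changes of 7.64 ± 0.15 (SE; adjusted p = 5.45e-25, edgeR), 6.78 ± 0.11 (3.89e-28) and 6.46 ± 0.13 (4.65e-26). FN1, which encodes fibronectin, had 14.1 and 14.3 CPM in the control and 645 and 686 CPM in adapted cells. ACTA2, smooth muscle actin, had 10.2 and 7.08 CPM in the control and 404 and 363 CPM in adapted cells. Both rose, by log2 5.55 ± 0.07 (adjusted p = 7.89e-24, edgeR) and 5.48 ± 0.27 (1.15e-05).

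The 15 largest rises among genes of at least 50 CPM also held RGS4, BGN, ENG, PCOLCE, CPA4, IGFBP6, LAMA4, SBSPON and HLA-DMB, with log2 changes from 4.07 to 6.95. RGS4, a regulator of G protein signalling, had 0.619 and 0.297 CPM in the control and 55.4 and 59.6 CPM in adapted cells. BGN, the matrix proteoglycan biglycan, had 1.24 and 1.02 CPM and then 61.7 and 55.1 CPM. ENG, the TGF-beta co-receptor endoglin, had 1.33 and 1.53 CPM and then 61.2 and 57.6 CPM. PCOLCE enhances the processing of procollagen, and LAMA4 is a laminin chain of basement membranes. PCOLCE had 5.75 and 5.43 CPM in the control against 213 and 222 CPM, and LAMA4 had 2.56 and 2.71 CPM against 51.5 and 48.8 CPM. IGFBP6 binds insulin-like growth factors. IGFBP6 had 5.17 and 5.30 CPM in the control and 126 and 130 CPM in adapted cells. The rule that chose these genes asked for sums that do not overlap.

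**Figure D1:**
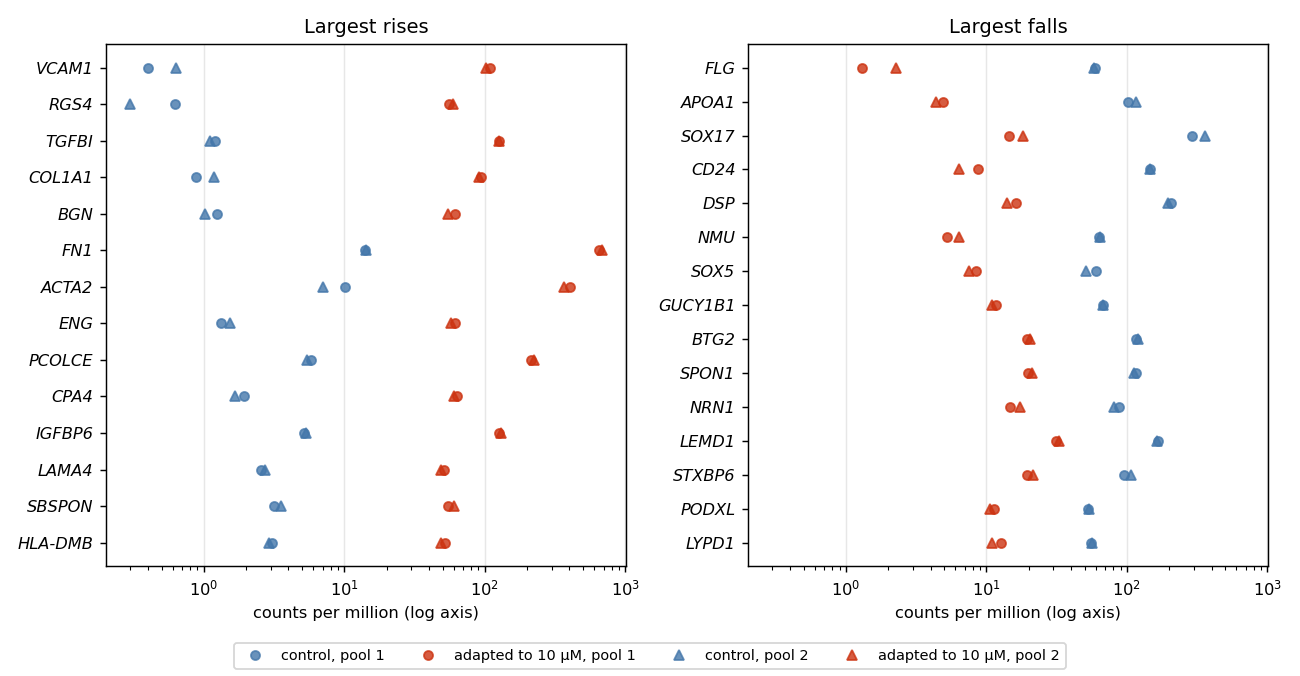
CPM on a log axis for 14 of the 15 largest rises (left) and the 15 largest falls (right) among genes of at least 50 CPM in the higher condition. Circles are pool 1 and triangles pool 2, blue for control and red for cells adapted to 10 µM. The rule asked for sums that do not overlap, and the pools of a condition lie close together.

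The largest falls took in lineage and junction genes. SOX17, a transcription factor of the Müllerian epithelium, had 289 and 360 CPM in the control and 14.6 and 18.2 CPM in adapted cells. CD24, a surface glycoprotein of epithelial cells, had 146 and 146 CPM and then 8.75 and 6.38 CPM. DSP, the desmosome protein desmoplakin, had 205 and 195 CPM and then 16.1 and 13.9 CPM. All 3 fell in edgeR, SOX17 by 4.31 ± 0.22 on the log2 scale (adjusted p = 1.24e-05), CD24 by 4.27 ± 0.13 (1.02e-10) and DSP by 3.74 ± 0.08 (1.92e-21). FLG, which encodes filaggrin, had 59.0 and 58.0 CPM in the control and 1.31 and 2.26 CPM in adapted cells. APOA1, an apolipoprotein, had 102 and 116 CPM in the control and 4.90 and 4.38 CPM in adapted cells. BTG2, an antiproliferative gene, had 115 and 121 CPM in the control and 19.6 and 20.4 CPM in adapted cells. The other 9 of the 15 largest falls were NMU, SOX5, GUCY1B1, SPON1, NRN1, LEMD1, STXBP6, PODXL and LYPD1, with log2 changes from -3.45 to -2.24.

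The shares of cells with a transcript moved in the same way at equal depth. With every cell thinned to 3000 UMIs, FN1 was seen in 50.6% and 53.2% of adapted cells and in 3.88% and 3.51% of control cells of the same pools. Control cells share the free RNA of their pool, which was not measured, so their share may hold both that background and their own transcripts. VCAM1 was seen in 19.3% and 19.2% of adapted cells and 0.124% and 0.187% of control cells. ACTA2 was seen in 31.7% and 32.6% against 2.02% and 1.36%. Without thinning the adapted means were 63.5% for FN1, 28.5% for VCAM1 and 42.6% for ACTA2. SOX17 was seen in 3.67% and 4.80% of thinned adapted cells and in 52.8% and 57.6% of control cells. VIM, which encodes vimentin, an intermediate filament of mesenchymal cells, was seen in 92.7% and 94.2% of adapted cells against 42.1% and 45.7%. The share of cells with a UMI also follows the level of a transcript, so these shares do not give the share of cells that express a gene.

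Mesenchymal genes moved up as a list. Of 31 tested members, 24 rose and 4 fell, with a median log2 change of 2.16 against 0.0048 over all genes. VIM had 258 and 279 CPM in the control and 1583 and 1497 CPM in adapted cells, a log2 change of 2.52 ± 0.07 (adjusted p = 3.86e-11, edgeR). AXL, a receptor tyrosine kinase, had 2.21 and 2.54 CPM and then 48.8 and 51.0 CPM. CD44, a hyaluronan receptor, had 16.6 and 16.6 CPM and then 75.6 and 73.4 CPM. The 4 that fell were TWIST1, NCAM1, TIMP3 and S100A4. Among transcription factors of this state, log2 changes were 0.24 for ZEB1, 1.58 for ZEB2, 0.30 for SNAI1, 2.65 for SNAI2 and 2.67 for TWIST2. All 5 were called higher, whereas TWIST1 fell by 1.60.

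Collagens rose in 14 of 19 tested members, with a median of 2.25, and 3 type IV chains fell. COL3A1, a fibrillar collagen chain, had 11.5 and 11.5 CPM in the control and 78.8 and 79.9 CPM in adapted cells. COL14A1, a fibril-associated collagen, had 3.63 and 3.31 CPM and then 42.9 and 40.2 CPM. COL1A2, the chain that normally joins COL1A1 in type I collagen, had 0 and 0 UMIs in the control and 0 and 1 in the adapted sums. COL1A1 thus rose beside at most 1 UMI of its partner chain in a sum. Among laminins, integrins and other matrix genes, 18 of 32 rose and 7 fell (median 0.43), against 33.7% and 33.4% of all tested genes.

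Of 16 contractile genes, 10 rose and 5 fell (median 1.05). TAGLN, the actin-binding protein transgelin, had 168 and 183 CPM in the control and 829 and 817 CPM in adapted cells, a log2 change of 2.23 ± 0.30 (adjusted p = 0.00114, edgeR). MYL9, a myosin light chain, had 312 and 323 CPM and then 748 and 709 CPM. MYLK, the kinase of that chain, fell from 62.7 and 65.4 CPM to 19.3 and 17.5 CPM. Beside 33.7% higher and 33.4% lower over all tested genes, 13 of 30 TGF-beta and YAP genes rose and 8 fell (median 0.16). Those that rose included the ligand TGFB1, from 6.81 and 5.43 CPM to 66.6 and 65.7 CPM, and the signal transducer SMAD3, from 10.6 and 11 CPM to 43.8 and 45.4 CPM. INHBA, an activin subunit, had 1 and 0 UMIs in the control and 111 and 151 UMIs in the adapted sums.

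Epithelial genes went both ways. Of 29 tested, 18 fell and 9 rose, with a median of -0.73. KRT8 fell to 680 and 680 CPM and KRT18 to 1717 and 1640 CPM, log2 changes of -0.89 ± 0.09 (adjusted p = 4.15e-05, edgeR) and -0.73 ± 0.11 (0.00197). CLDN3, a tight junction claudin, went from 46.2 and 47.0 CPM to 14.7 and 15.9 CPM. EPCAM rose to 11 and 11.9 CPM, a log2 change of 1.31 ± 0.15 (adjusted p = 7.35e-09, edgeR). KRT7, a keratin of ductal and Müllerian epithelium, rose from 2.92 and 2.76 CPM to 40.5 and 42.2 CPM. A clean exchange of epithelial for mesenchymal transcripts was thus not seen in the sums.

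Genes of the ovarian serous lineage fell in 12 of 24 and rose in 7 (median -0.34). Over all tested genes 33.4% were lower and 33.7% higher. PAX8 fell to 90.3 and 92.4 CPM, by 0.86 ± 0.06 on the log2 scale (adjusted p = 1.18e-13, edgeR). WT1 had 24.0 and 25.8 CPM in the control and 1.89 and 1.87 CPM in adapted cells. MSLN, the surface antigen mesothelin, went from 88.3 and 83.2 CPM to 21.9 and 22.1 CPM. WFDC2, which encodes the serum marker HE4, went the other way, from 270 and 264 CPM to 1379 and 1379 CPM. PAX2, another Müllerian factor, rose from 2 and 1 UMIs to 23 and 17 UMIs, and FOLR1, the folate receptor, from 4.20 and 4.07 CPM to 10 CPM in each sum.

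Markers of other cell types were measured beside these groups. Of 15 leukocyte markers 3 were expressed enough to be tested, and their summed level over all 15 was 1.30 and 0.949 CPM in the control and 2.77 and 2.50 CPM in adapted cells. Of the tested ones 2 rose, among them CD79A, a part of the B cell receptor, from 10 UMIs over both control sums to 30 over both adapted sums, and CD14 was not called (adjusted p = 0.477, edgeR). PTPRC had at most 1 UMI in a sum, and CD3D, CD3E and MS4A1 had 0. Of 11 tested fibroblast markers 9 rose, 2 fell and the median was 2.79. Their summed level was 2129 and 2102 CPM in the control and 2005 and 2044 CPM in adapted cells, most of it S100A4. Among defining fibroblast genes, LUM, a collagen-binding proteoglycan, had 0 and 0 UMIs in the control and 25 and 23 in adapted cells, at least 11.8-fold higher against a floor of 3 UMIs per sum. DCN, the proteoglycan decorin, went from 0 and 1 UMIs to 63 and 31. The PDGF receptor genes PDGFRB and PDGFRA went from 2 and 1 to 82 and 86 UMIs and from 4 and 1 to 30 and 43 UMIs. POSTN had 0 and 0 UMIs in the control and 0 and 1 in the adapted sums, and FAP had 1 and 0 against 7 and 7. Mesothelial markers fell in 7 of 11 and rose in 2 (median -1.09), and their summed level went from 296 and 302 CPM to 105 and 100.2 CPM.

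Of 9 tested endothelial markers 4 were higher and 3 lower, beside 33.7% and 33.4% over all tested genes. Endothelial markers summed to 68.8 and 67.4 CPM in the control and 234 and 225 CPM in adapted cells. EGFL7, a secreted vessel factor, made up most of that, with 54.0 and 52.0 CPM and then 191 and 181 CPM. EMCN, the endothelial sialomucin endomucin, rose from 0.177 and 0.424 CPM to 22.5 and 21.7 CPM, and TIE1, a receptor tyrosine kinase, from 7.65 and 6.79 CPM to 22.9 and 24.1 CPM. FLT1, a VEGF receptor, rose from 3 and 9 UMIs to 65 and 42 UMIs. CDH5, VWF and KDR fell, and PECAM1 had at most 2 UMIs in a sum. The part of other cell types in the results was not tested. Of thinned cells, 11.7% and 9.53% of adapted cells and 8.13% and 7.77% of control cells had no UMI of a panel of 16 lineage genes. A fit with only cells that carried such a UMI in every condition gave 4463 higher and 4420 lower genes. That choice used unthinned cells and left out only 76 and 54 adapted and 22 and 16 control cells. It could therefore hardly move the counts, and it says little about other cell types.

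**Figure D2:**
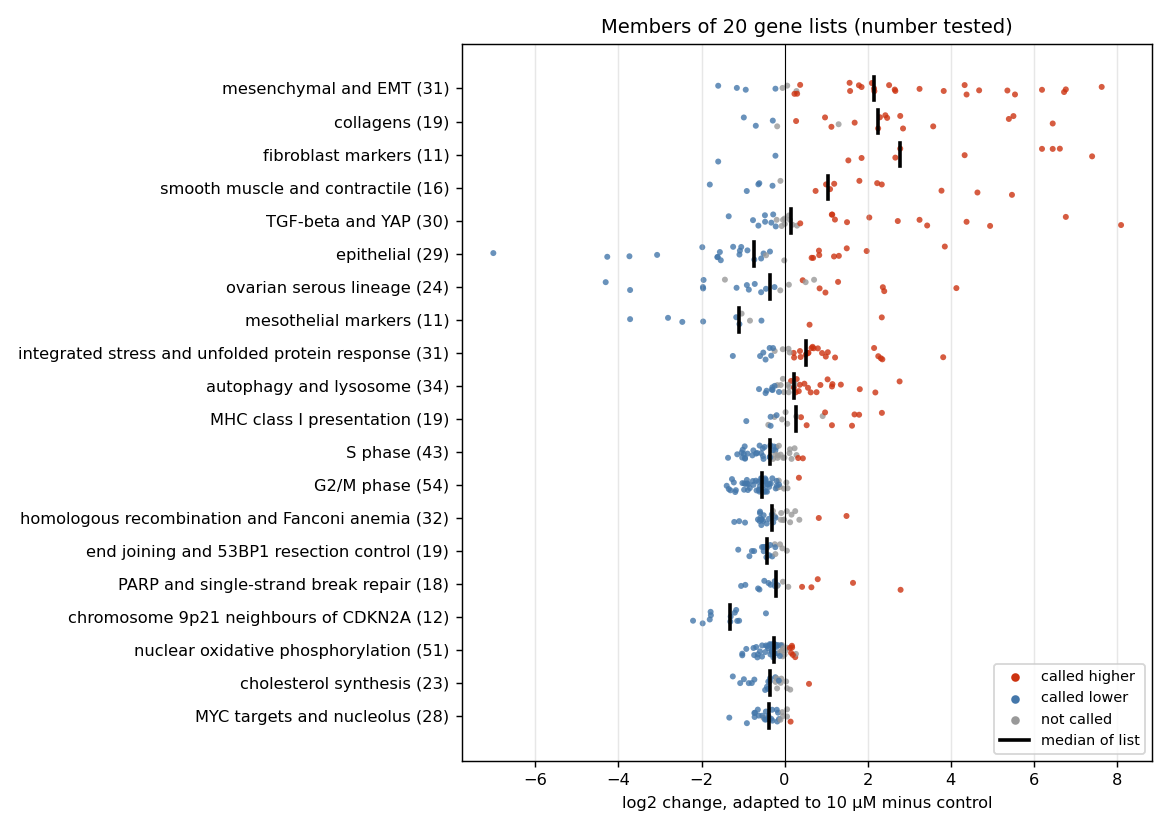
Log2 change of each tested member of 20 gene lists, cells adapted to 10 µM minus control. Red points were called higher, blue lower and grey neither, and black bars are list medians. Mesenchymal, collagen and fibroblast lists spread far to the right, with medians of 2.16, 2.25 and 2.79, and the neighbours of CDKN2A lie wholly to the left (median -1.30).

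Genes of the integrated stress response and the unfolded protein response rose in 20 of 31 and fell in 7, with a median of 0.51. Over all tested genes 33.7% were higher and 33.4% lower. The integrated stress response slows translation and lets the factor ATF4 induce amino acid and redox genes. GDF15, a stress-induced cytokine, had 4.25 and 4.67 CPM in the control and 63.5 and 62.8 CPM in adapted cells, a log2 change of 3.82 ± 0.15 (adjusted p = 1.12e-09, edgeR). TRIB3, a pseudokinase that feeds back on ATF4, had 5.26 and 5.13 CPM and then 28.1 and 25.2 CPM. CHAC1, which degrades glutathione, had 4.51 and 5.56 CPM and then 26.7 and 23.7 CPM. ASNS, asparagine synthetase, had 19.2 and 18.4 CPM and then 89.7 and 90.4 CPM. ATF4 itself rose from 106 and 111 CPM to 170 and 170 CPM, and DDIT3, its pro-apoptotic partner, from 20.2 and 23.6 CPM to 38.2 and 38.2 CPM. ATF3, another factor of the response, fell from 134 and 128 CPM to 55.4 and 54.9 CPM.

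ATF4 is a known regulator of several of these genes, and the promoters of the list were searched for TGATGNAA, a core of the composite site of ATF4 and C/EBP factors, on both strands. The window ran from 250 bases before to 50 after the start in RefSeq (GRCh38.p14). It was present in 5 of the 27 list promoters found there (ATF3, CHAC1, ASNS, SLC3A2 and HERPUD1) and in 1003 of 27305 promoters overall (3.67%). Of these 5 genes 4 rose and ATF3 fell. The promoters of ASNS (chr7:97872359-97872658, minus strand) and CHAC1 (chr15:40953221-40953520, plus strand) are shown because both genes rose and both hold the motif, which is in capitals. In CHAC1 the motif lies on the opposite strand. A match is a description of the letters and no measure of binding.
ASNS: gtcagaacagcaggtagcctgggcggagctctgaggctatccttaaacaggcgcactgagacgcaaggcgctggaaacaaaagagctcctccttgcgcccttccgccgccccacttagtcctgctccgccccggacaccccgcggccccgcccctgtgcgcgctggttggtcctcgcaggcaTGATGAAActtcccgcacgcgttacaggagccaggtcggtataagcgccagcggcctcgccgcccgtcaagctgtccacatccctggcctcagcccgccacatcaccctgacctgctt
CHAC1: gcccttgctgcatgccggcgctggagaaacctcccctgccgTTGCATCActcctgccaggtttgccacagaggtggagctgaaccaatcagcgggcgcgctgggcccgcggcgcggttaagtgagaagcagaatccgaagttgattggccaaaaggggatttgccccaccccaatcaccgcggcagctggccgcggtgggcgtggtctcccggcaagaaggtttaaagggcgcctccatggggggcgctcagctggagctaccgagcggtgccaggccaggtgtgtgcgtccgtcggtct

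Fewer cells were called as cycling in both adapted pools. At 3000 UMIs per cell, 36.4% and 33.4% of adapted cells had an S or G2/M phase call, against 56.4% and 55.1% of control cells. The pools did not overlap, and the exact two-sided permutation test gave p = 0.33, the smallest p that 2 against 2 allows. Of the S phase genes 28 of 43 fell and 2 rose (PRIM1 and UBR7), and of the G2/M genes 47 of 54 fell and 1 rose (AURKB), with medians of -0.35 and -0.55. MKI67, a proliferation marker, had 155 and 155 CPM in the control and 107 and 95.1 CPM in adapted cells. CLSPN, which carries the ATR signal to CHK1, had 156 and 156 CPM and then 62.1 and 59.3 CPM. The lists also fell among cells on a deposited list of cells that are mostly in G1, with medians of -0.20 and -0.50 there.

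Cell cycle regulators did not move as a block. CDKN1A, which encodes the cell cycle inhibitor p21, rose from 14.0 and 15.7 CPM to 29.8 and 29.9 CPM, a log2 change of 1.01 ± 0.09 (adjusted p = 3.47e-11, edgeR). CDKN2C, an inhibitor of CDK4 and CDK6, rose from 1.24 and 1.99 CPM to 18.7 and 22.2 CPM. CDK6 rose from 81.0 and 83.3 CPM to 157 and 157 CPM, and RB1, the retinoblastoma gene, fell from 54.1 and 50 CPM to 28.0 and 27.1 CPM. CCNE1, cyclin E1, fell from 18.4 and 20.4 CPM to 13.2 and 13.1 CPM.

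PARP1 and most tested members of the repair lists were lower, whereas PARP2 changed little. PARP1 (chromosome 1, 226360691 to 226408079, GRCh38) had 323 and 314 CPM in the control and 167 and 164 CPM in adapted cells, and it fell by 0.94 ± 0.04 on the log2 scale (adjusted p = 2.41e-17, edgeR). PARP2 had 28.1 and 27.8 CPM and then 25 and 22.6 CPM, a log2 change of -0.23 ± 0.08 (adjusted p = 0.0107, edgeR). That call was lost with DESeq2 (adjusted p = 0.123), without the first control sum (0.0575, edgeR) and without the second adapted sum (0.174). PARG, which removes the ADP-ribose chains that PARP1 makes, had 13.1 and 13.3 CPM against 11.6 and 11.7 CPM and was not called (adjusted p = 0.136, edgeR). Among 18 genes of PARP and single-strand break repair, 10 fell and 5 rose, beside 33.4% lower and 33.7% higher over all tested genes. The list median was -0.21, and it was -0.098 among cells on the deposited G1 list. In those cells homologous recombination and end joining genes had medians of -0.31 and -0.36.

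BRCA2 (chromosome 13, 32315474 to 32400266) had 18.4 and 17.5 CPM in the control and 13.9 and 12.8 CPM in adapted cells, a log2 change of -0.43 ± 0.10 (adjusted p = 0.000583, edgeR). BRCA1 had 43.3 and 39.0 CPM against 40.2 and 37.7 CPM and was not called (adjusted p = 0.326, edgeR). Of 32 genes of homologous recombination and the Fanconi pathway 18 fell and 2 rose (RAD51B and RAD52), with a median of -0.30. Over all tested genes 33.4% were lower and 33.7% higher. BARD1, the partner of BRCA1, fell from 56.4 and 55.6 CPM to 37.1 and 34.7 CPM. End joining and 53BP1 genes fell in 14 of 19, rose in none and had a median of -0.42. XRCC5, the Ku80 subunit, fell from 507 and 477 CPM to 280 and 267 CPM. TP53BP1, which limits the resection of broken ends, had 55.6 and 52.1 CPM in the control and 47.5 and 44.8 CPM in adapted cells. Its log2 change of -0.22 ± 0.07 passed in edgeR (adjusted p = 0.00418) and missed with DESeq2 (0.0566), without the first control sum (0.0700) and without the second adapted sum (0.0688).

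SLFN11, which blocks stressed replication forks and is known to sensitise cells to PARP inhibitors, had 0 and 0 UMIs in the control and 20 and 13 UMIs in adapted cells. This is at least 8.12-fold higher against the floor of 3 UMIs per sum, and only 0.957% of unthinned adapted cells held a UMI. HUS1, part of the checkpoint clamp, fell from 24.9 and 24.9 CPM to 7.90 and 7.15 CPM. ABCB1, the drug efflux pump for which olaparib is a substrate, had 0 and 0 UMIs in the control and 0 and 1 UMIs in adapted cells. No change of the pump was detectable at this depth. Of 23 other ABC transporters tested 8 rose and 6 fell, with a median of 0.049. These counts were near the 33.7% higher and 33.4% lower over all tested genes.

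The neighbours of CDKN2A on chromosome 9 fell together. CDKN2A, which encodes the inhibitor p16, had 821 and 870 CPM in the control and 242 and 250 CPM in adapted cells, a fall of 1.78 ± 0.05 on the log2 scale (adjusted p = 2.84e-22, edgeR). MTAP, a purine salvage enzyme, had 72.0 and 70.3 CPM and then 18.4 and 17.9 CPM. CDKN2B, the p15 inhibitor, had 12.2 and 11.1 CPM and then 3.27 and 3.55 CPM. KLHL9, a ubiquitin ligase adaptor, had 34.6 and 33.3 CPM and then 16.3 and 14.5 CPM. All 12 tested genes of the region fell, with a median of -1.30, and 11 fell at least 2-fold. CDKN2A was seen in 37.7% and 37.0% of thinned adapted cells and in 90.5% and 91.6% of control cells.

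Changes followed position elsewhere in the genome too. Over genes of at least 5 CPM the median log2 change was -0.62 for the 1003 genes of chromosome 1, of which 76.7% were called lower and 9.87% higher. It was -0.58 for the 163 genes of chromosome 13 and 0.31 for the 564 genes of chromosome 17, against -0.086 over all 9401 such genes. In windows of 20 Mb the lowest median, -0.99 over 70 genes, was that of 20 to 40 Mb of chromosome 9. Chromosome 7 changed sign along its length, with medians of -0.57, -0.62 and -0.55 in the first 3 windows and 0.38, 0.61 and 0.51 in the next 3. The last window of chromosome 1, from 240 Mb, stood at 0.13. DNA copy number was not analysed here, and the source of the pattern was not tested.

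Several results above share a position with such a window, so the change of each gene was also set against the median of the other genes in its window. PARP1 changed by -0.57 relative to its neighbours, BRCA2 by 0.073, RB1 by -0.36 and CDK6 by 0.34. The window of PARP1, 220 to 240 Mb of chromosome 1, had a median of -0.38, and the adjoining window from 200 Mb had -0.69. The value for PARP1 thus depends on where its window ends. CDKN2A changed by -0.81 and MTAP by -1.0 relative to theirs, and KLHL9 by -0.17. COL1A1 kept 6.22 of its rise, FN1 5.91 and VCAM1 8.44. The median of the S phase list was -0.31 relative to neighbours and that of G2/M genes -0.50. For homologous recombination the value was -0.31 over 25 genes and for single-strand break repair 0.031 over 16.

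**Figure D3:**
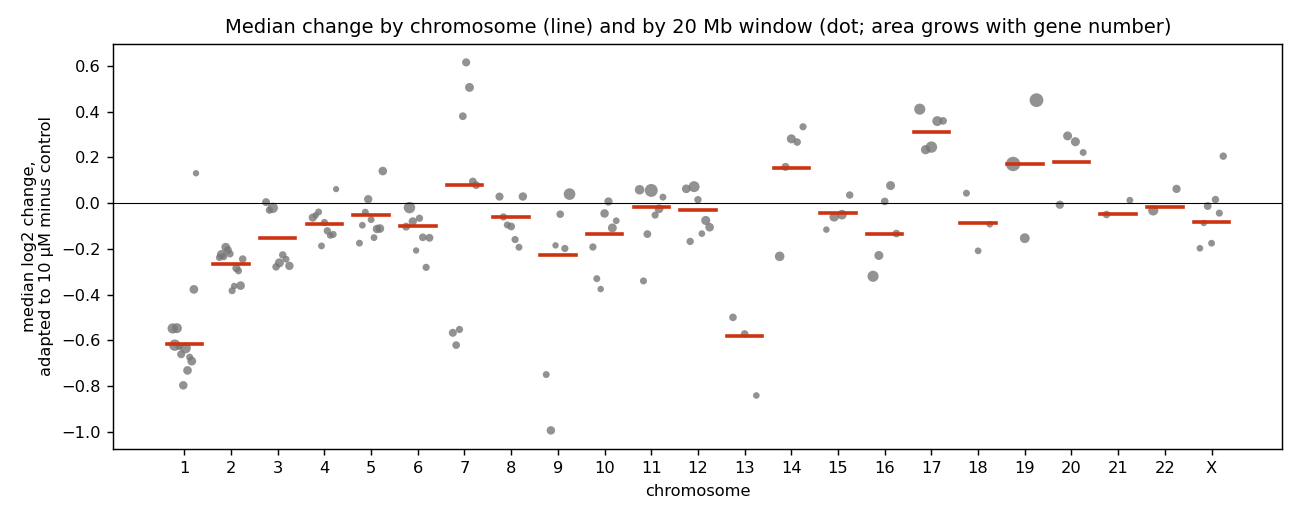
Median log2 change, cells adapted to 10 µM minus control, for each chromosome (red line) and each 20 Mb window with at least 20 genes (grey dot, ordered along the chromosome). Chromosomes 1 and 13 lie at -0.62 and -0.58, chromosome 17 at 0.31, and chromosome 7 splits into windows below 0 and windows up to 0.61.

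Metabolic lists moved by small amounts, and their counts stand beside 33.7% higher and 33.4% lower over all tested genes. Nuclear genes of oxidative phosphorylation fell in 36 of 51 and rose in 6, with a median of -0.26. NDUFA4, a cytochrome oxidase subunit, had 1346 and 1357 CPM in the control and 668 and 666 CPM in adapted cells, and its window on chromosome 7 had a median of -0.57. Relative to neighbours the list median was -0.12. Cholesterol synthesis genes fell in 14 of 23 and rose in 1, INSIG1, a brake on the pathway (median -0.35). SQLE, squalene epoxidase, fell from 355 and 348 CPM to 219 and 206 CPM. Fatty acid synthesis went up in 10 of 16 and down in 3 (median 0.32). FABP5, a fatty acid carrier listed with fatty acid oxidation and not with synthesis, rose from 10.1 and 9.71 CPM to 97.6 and 85.8 CPM. Of 28 genes of hypoxia and glycolysis 13 rose and 11 fell, beside 33.7% higher and 33.4% lower over all tested genes.

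Growth genes fell while ribosomal transcripts rose. Of 28 MYC targets and nucleolar genes 21 fell and 1 rose, NPM1, a nucleolar chaperone (median -0.38). MYC had 138 and 143 CPM in the control and 93.7 and 88.9 CPM in adapted cells. NCL, nucleolin, had 1333 and 1269 CPM and then 709 and 679 CPM. Of 82 cytosolic ribosomal protein genes 68 rose and 5 fell, with a median of 0.44. Lysosome and autophagy genes rose in 18 of 34 and fell in 8 (median 0.23), beside 33.7% higher and 33.4% lower over all tested genes. NPC2, a lysosomal cholesterol carrier, rose from 110 and 109 CPM to 501 and 494 CPM, and GRN, progranulin, from 80.2 and 75.9 CPM to 202 and 197 CPM.

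Of 19 genes of MHC class I presentation 8 rose and 4 fell, beside 33.7% higher and 33.4% lower over all tested genes. HLA-B had 85.3 and 90.5 CPM in the control and 267 and 276 CPM in adapted cells, and HLA-E had 24.9 and 27.3 CPM and then 92.3 and 89.1 CPM. HLA-DMB and HLA-DMA, which load peptides on class II molecules, had 3.05 and 2.93 CPM and 1.46 and 1.40 CPM in the control. They had 52.2 and 48.7 CPM and 29.5 and 29.6 CPM in adapted cells, while HLA-DRA, a class II chain itself, stood at 0.0212 CPM on average in the control and 0.0971 CPM in adapted cells. Interferon response genes were higher in 13 of 48 and lower in 18 (median 0.021), near the shares over all genes. IFITM2, an antiviral membrane protein, rose from 124 and 129 CPM to 481 and 509 CPM, and GBP1, a guanylate-binding protein, fell from 65.4 and 70.3 CPM to 24.2 and 23.5 CPM. CD47, the surface signal against phagocytosis, fell from 310 and 330 CPM to 84.0 and 81.7 CPM. CD70, a ligand of the TNF family, rose from 3.40 and 3.90 CPM to 31.4 and 33.8 CPM.

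The next counts stand beside 33.7% higher and 33.4% lower over all tested genes, and those of the BCL2, NRF2 and inflammatory lists were near these shares. Among aldehyde dehydrogenases, ALDH1A2 had 30.7 and 31.9 CPM in the control and 0.980 and 1.42 CPM in adapted cells. ALDH1A1 had 2 and 1 UMIs in the control against 72 and 79 UMIs (4.70 and 5.09 CPM). Both make retinoic acid, and whether their changes are linked was not tested. In the BCL2 family 6 of 15 rose and 4 fell. The survival gene BCL2L1 fell from 77.6 and 82.6 CPM to 38.1 and 37.5 CPM. MCL1, also pro-survival, fell from 159 and 155 CPM to 108 and 114 CPM. Relative to the other genes of its window BCL2L1 changed by -1.38, and MCL1, which lies on chromosome 1, by 0.14. NRF2 targets rose in 9 of 23 and fell in 10, and heat shock genes rose in 5 of 19 and fell in 9. DNAJA1, an HSP40 chaperone, fell from 709 and 709 CPM to 304 and 292 CPM, and it too lies in the low window of chromosome 9. Among inflammatory genes 8 of 27 rose and 9 fell. IL32, a cytokine, fell from 26.6 and 27.0 CPM to 3.85 and 5.03 CPM, and the chemokine CXCL1 rose from 9.51 and 9.25 CPM to 53.2 and 50.1 CPM.

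The adapted cells were not uniform. Clustering of the adapted cells alone, without the S and G2/M list genes, gave 5 clusters that each drew on both pools. The clusters were formed from the genes described here, so their levels are descriptions without a test, in CPM of the cluster's own UMIs. Clusters 2, 3 and 4 held 1846 cells (53.3% and 55.0% of the pools) and had FN1 above 500 CPM, and clusters 1 and 5 held the other 1569 cells with FN1 at 159 and 97.4 CPM. Median UMIs per cell were 6430 and 7297 on the fibronectin-high side and 9933 and 11965 on the low side.

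ACTA2 stood at 917 and 838 CPM in cluster 2, 952 and 782 in cluster 3 and 618 and 620 in cluster 4. In clusters 1 and 5 it stood at 14.7 to 21.9 CPM, near the 10.3 and 7.20 CPM of the control. VCAM1 and TGFBI followed the same split, with VCAM1 at 0.613 to 4.91 CPM in clusters 1 and 5 and 65.7 to 523 CPM in the others. CDKN2A ran the other way, at 27.9 and 27.5 CPM in cluster 2 and 17.4 and 16.8 CPM in cluster 3 against 342 to 418 CPM in clusters 1 and 5. MTAP followed it, at 1.91 and 1.72 CPM in cluster 2 and 25.9 and 25.8 CPM in cluster 1. PAX8 stood at 143 and 142 CPM in cluster 1 and 38.3 and 45.4 CPM in cluster 2, and EPCAM at 19.6 and 22.1 against 0.765 and 1.72 CPM. The intermediate sums of CDKN2A and PAX8 thus mixed clusters with more and clusters with less of them. CDKN2A in clusters 1 and 5 was still far below the control, whose sums had 821 and 870 CPM (TMM scaled). MTAP in cluster 1 was likewise below the control's 72.0 and 70.3 CPM. Set against control, the neighbours of CDKN2A had log2 medians of -1.63 in clusters 2, 3 and 4 and -1.11 in clusters 1 and 5.

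Cluster 4 (192 and 164 cells) had features of both sides. COL1A1 stood at 514 and 514 CPM there and at most at 106 CPM elsewhere, and INHBA, COL5A2, a fibrillar collagen chain, and THBS1, a matrix glycoprotein, led its genes. CDKN2A was at 184 and 201 CPM in this cluster, and KRT18 at 3123 and 2569 CPM was the highest of the 5. BGN was shared by clusters 1, 4 and 5 (72.8 to 116 CPM) and was at most 4.06 CPM in clusters 2 and 3. HLA-DMB was high in clusters 1 and 5 (72.8 to 84.7 CPM) and low in the other 3 (2.86 to 16.8 CPM). SOX17, CD24 and DSP were far below the control in all 5 clusters, as WT1 was. VIM was above it in all 5, with 945 CPM as the lowest value.

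Each side held cycling and non-cycling cells. MKI67 stood at 283 and 257 CPM in cluster 5 and 256 and 252 CPM in cluster 3, against 10.3 and 12.9 CPM in cluster 1 and 5.74 and 5.51 CPM in cluster 2. Cluster 5 had 0% and 0.709% of its cells on the deposited list of G1-like cells, and cluster 2 had 94.6% and 93.9%. TRIB3 was highest in cluster 1, at 48.7 and 37.4 CPM, and above the control's 5.35 and 5.22 CPM in all 5 clusters.

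Each side was also summed alone and set against the control, an alternative chosen after seeing the data. The sides were split on these genes, so the log2 changes are descriptions and carry no test. ACTA2 and TAGLN had changes of 1.10 and 0.10 in the low side. CD44 had -0.56 there, against its rise in the sums, and EPCAM had -1.15 in the high side. The list of laminins, integrins and other matrix genes had medians of 0.63 in the high side and 0.48 in the low side. The epithelial list had medians of -1.96 in the high side and 0.26 in the low side, and the mesenchymal list 2.71 and 0.52. Chromosome 1 had medians of -0.82 and -0.43, chromosome 14 had 0.44 and -0.077, and chromosome 17 had 0.095 and 0.52. The last window of chromosome 1 stood at -0.62 in the high side and 0.58 in the low side. The window of PARP1 stood at -0.91 and -0.021.

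**Figure D4:**
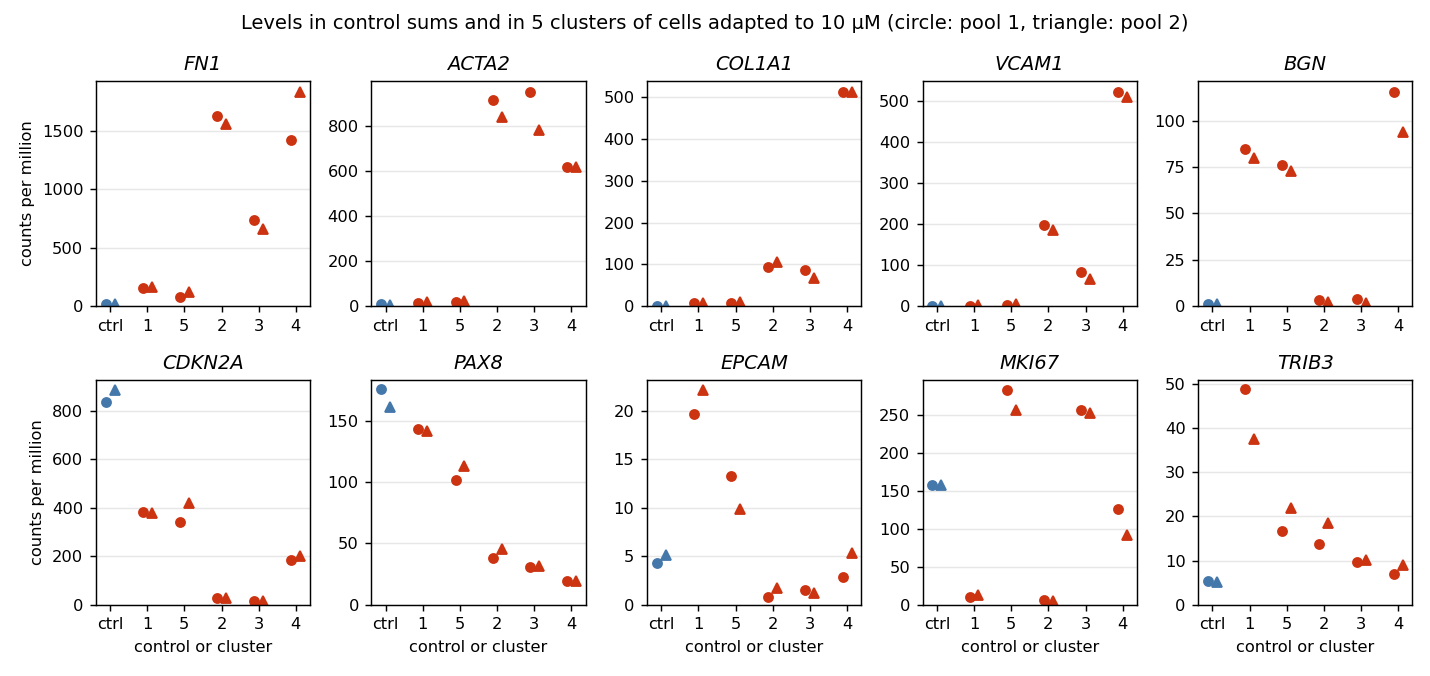
CPM of 10 genes in the control sums (blue) and in 5 clusters of the cells adapted to 10 µM (red), circle for pool 1 and triangle for pool 2, ordered with clusters 1 and 5 first. FN1, ACTA2 and VCAM1 are high in clusters 2, 3 and 4, CDKN2A, PAX8 and EPCAM are higher in clusters 1 and 5, and COL1A1 reaches 514 CPM in cluster 4.

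Set directly against the population adapted at 320 µM, 8766 genes (65.8%) differed. COL1A1 was higher at 10 µM by log2 6.71 (adjusted p = 6.56e-26, edgeR), with 1.13 and 0.639 CPM in the 320 µM sums, and VCAM1 by 6.30 (3.63e-24), with 1.57 and 1.10 CPM. CDKN2A was higher at 10 µM by 3.44 (adjusted p = 5.92e-27, edgeR), since the 320 µM sums had 21.9 and 23.3 CPM. ENG and VIM were high in both, with ENG at 47.5 and 52.4 CPM and VIM at 2263 and 2170 CPM in the 320 µM sums. AXL, at 45.8 ± 0.79 CPM (SD, n = 2) in the 320 µM sums, did not pass between the doses (adjusted p = 0.122, edgeR). CDKN1A was lower at 10 µM by 1.09 (adjusted p = 4.97e-13, edgeR), with 63.1 and 64.1 CPM at 320 µM. The median change of chromosome 1 against control was -0.75 at 320 µM beside -0.62 at 10 µM, with the same control sums in both.

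Against persister cells at the same dose, 8094 genes (60.7%) differed. FN1 was lower in adapted than in persister cells, which had 764 ± 68.4 CPM (SD, n = 2), by 0.20 on the log2 scale (adjusted p = 0.00407, edgeR), whereas ACTA2 had 16.7 ± 12.4 CPM and VCAM1 2.26 ± 0.817 CPM there. CDKN2A stood at 740 ± 62.5 CPM in persister cells, and MKI67 at 34.8 ± 4.41 CPM. PARP1 stood at 174 ± 2.74 CPM in persister cells, and its difference from adapted cells, log2 -0.072 ± 0.05, did not pass (adjusted p = 0.223, edgeR). The persister sums were shallow, at 3532281 and 3745019 UMIs. Chromosome 1 had a median of -0.088 in persister cells against control.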

How the data were processed

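The deposited matrix holds UMI counts per gene and cell, not normalized by the authors. The submitters' processing notes name hg38 (GRCh38) as genome build, and as tools Seurat and Cell Ranger 3.1. Any setting for counting, demultiplexing or doublets is not given in the sources used here. No doublet caller was run. The 10 GEO samples are 8 expression and 2 hashtag libraries of 2 pools, so condition and pool were read from each cell's deposited name. The pools shared 13 cell barcodes. All cells were used. The authors' deposited list of G1 cells served only to pick cells.

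Counts were summed per condition and pool. All 10 sums were fitted in edgeR 4.0.16 (R 4.3.3) with TMM scaling, filterByExpr and robust quasi-likelihood tests, with Benjamini-Hochberg adjustment over 13330 genes and 5 residual degrees of freedom (biological coefficient of variation 4.39%). Each SE is the absolute log2 change divided by the square root of the F statistic of its test. The script was tested on simulated data. The alternatives were DESeq2 1.42.0, other scalings, no filter, the 4 sums alone, each sum left out, a replicate block, thinned sums and subsets of cells. Pool numbers pair the samples: same-numbered sums of adapted and control cells deviated together (correlation 0.612 over 2730 genes, 0.338 to 0.612 for all pairs of conditions), and the labels number the pools.

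Cells were thinned to 3000 UMIs for shares and phases (scanpy 1.11.5). That left out 35 and 21 adapted and 11 and 18 control cells of the pools. Clusters used 2000 variable genes, 20 components, 20 neighbours and Leiden resolution 0.3. Positions are from GENCODE on GRCh38. Floors cover counting error only.

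The 43 gene lists were written from general knowledge, and the comparison and lists were chosen with earlier results of these data known. Named genes were the 15 largest rises and falls of at least 50 CPM with non-overlapping sums (no clone, LINC, ribosomal or mitochondrial symbols), from each list up to 4 genes above 20 CPM, taken by smallest p, fixed genes of PARP inhibitor response and lineage, and members that make up small counts. Other genes, among them TAGLN, MYL9, KRT8, KRT18, WFDC2, INHBA, LUM, DCN, PDGFRA, PDGFRB, FLT1, PAX2, FOLR1, CD79A, CD14, the falling endothelial markers, ALDH1A1, ATF4, DDIT3, the untested COL1A2 and POSTN, and transcription factors of the mesenchymal state, were chosen after their values were seen. Lists not described above, for surface antigens, stem cell genes, G1/S regulators, replication stress, mitochondrially encoded genes, fatty acid oxidation, metallothioneins, glutathione transferases, immediate early genes, class II and neural markers, had medians of -0.17, 0.081, -0.082, -0.081, 0.095, 0.095, 0.020, -0.30, 0.049, 1.89 and 1.86. Some genes are not reported here.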

Additional observations from a re-analysis of the deposited data

Results flagged for a closer look

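For 3 of the 30 genes with the largest changes, both adapted populations were called changed against the same control, in opposite directions. The direct test between the populations adapted to 10 µM and to 320 µM also passed for them in edgeR. Genes not called at 320 µM against control, such as COL1A1 (log2 -0.25, adjusted p = 0.503, edgeR), were not counted. BGN was higher at 10 µM than at 320 µM by log2 6.98 (adjusted p = 6.11e-24), with 61.7 and 55.1 CPM against 0.313 and 0.581 CPM, and the control had 1.24 and 1.02 CPM. SBSPON, a secreted matrix protein, was higher at 10 µM by log2 6.62 (adjusted p = 1.69e-24), with 54.5 and 60.1 CPM against 0.689 and 0.465 CPM, and the control had 3.14 and 3.52 CPM. NRN1, a neuronal growth factor, differed by log2 -4.22 (adjusted p = 1.19e-28), with 14.6 and 17.3 CPM at 10 µM against 303 and 294 CPM at 320 µM, and the control had 87.2 and 80.7 CPM.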

How the results depend on the processing

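The counts of higher and lower genes stayed within 1.5 times of 4495 and 4446 under every alternative except sums thinned to the shallowest total, which gave 2809 and 2698 of 11578 genes. With the pool as a replicate block they were 4723 and 4720, and that fit changed no call among 198 named genes. Leaving out 1 sum at a time gave 4005 to 4035 higher and 3871 to 4037 lower genes. DESeq2 gave 3862 and 3534. Library totals moved the median of all genes from 0.0048 to -0.064, with 4056 higher and 4981 lower genes.

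Among the named genes, directions turned only in subsets of cells. In fibronectin-low adapted cells these were ACTN1 (-0.14), CD44 (-0.56), CDK6 (-0.055), COL14A1 (-0.60), MT2A (-0.71), PSMB9 (-1.41) and TP53BP1 (0.037). In fibronectin-high cells they were EPCAM (-1.15), MT-ND1 (-0.099) and MT-ND4 (-0.30), and among G1-listed cells PARP2 (0.056). CDH1 lost its call whichever sum was left out.

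The S or G2/M share at 5000 UMIs was 38.9% in adapted and 57.9% in control cells, and 33.5% and 54.5% without thinning. Cells with no panel UMI were 10.6% and 7.95% at 3000 UMIs. They were 6.24% and 2.80% at 5000 UMIs and 3.78% and 0.823% without thinning. With at most 1 UMI allowed the order turned at 3000 UMIs, at 21.4% and 24.5%, but not at 5000 UMIs (12.3% and 9.89%) or without thinning (7.90% and 2.39%). With 2 sums a condition no single value can pass an exact test.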
